A study of Mus musculus with 6 samples.

Results

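The genes of Polycomb repressive complex 2 (PRC2) were examined in mouse embryonic stem cells (mESCs) that overexpressed Rbbp4 or Rbbp7, the genes of 2 further subunits of the complex. The set was taken by gene name, as the subunits other than RBBP4 and RBBP7, with no threshold on a measured value. It holds the core genes Ezh1, Ezh2, Suz12 and Eed, the accessory genes Phf1, Mtf2 and Phf19 of the form called PRC2.1, and the accessory genes Jarid2 and Aebp2 of the form called PRC2.2. These 9 genes are among 55401 listed in the expression tables, and all 9 were among the 14156 genes with a mean of at least 0.5 TPM (an expression level scaled for transcript length and library total) that entered the test. Phf19 was near this limit, with a mean of 0.672 TPM over the 6 libraries and 0.43 TPM in the controls.

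The study asked whether the homologs RBBP4 and RBBP7 act alike in mESCs, with bulk RNA-seq after degradation of either protein among its assays. Lines with biotin-tagged RBBP4 or RBBP7 were made for ChIP-seq, and RNA-seq libraries of such overexpressing lines are examined here. Its bulk RNA-seq was poly(A)-selected. The 6 libraries fall into 3 groups of 2, namely control 46C cells, 46C cells overexpressing Rbbp4 (Rbbp4 OE) and 46C cells overexpressing Rbbp7 (Rbbp7 OE). By the study's methods, 46C cells first received the biotin ligase BirA-V5 by lentivirus and were selected with blasticidin. They then received a FLAG-Avitag vector that was empty or carried Rbbp4 or Rbbp7 cDNA and were selected with puromycin. The labels call the controls only 46C control cells, and they were taken to be the empty-vector cells. On that reading, each group is a drug-selected pool from a viral infection rather than a picked clone. If the controls were instead uninfected 46C cells, infection, BirA-V5 and drug selection could not be told apart from overexpression in either comparison against control. The endogenous Rbbp4 and Rbbp7 genes were left in place, and all cells were grown with serum, LIF and the inhibitors Chir99021 and PD0325901. Nothing in the labels says that the libraries of a group came from separate cultures, so p-values measure the spread between these libraries, which may be technical.

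PRC2 methylates lysine 27 of histone H3, a mark of repressed developmental genes. EZH2 or its homolog EZH1 carries the methyltransferase activity, SUZ12 is the scaffold, EED binds the methylated histone tail and stimulates the enzyme, and RBBP4 or RBBP7 binds the histone and SUZ12. The Polycomb-like proteins PHF1, MTF2 and PHF19 bring PRC2.1 to CpG-rich DNA, whereas JARID2 and AEBP2 belong to PRC2.2, and mESCs can self-renew without the complex but differentiate poorly.

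The overexpressed genes were measured first. Rbbp4 was at 146 and 147 TPM in the controls, with 270 and 271 TPM under Rbbp4 OE and 144 and 143 TPM under Rbbp7 OE, a log2 fold change of 0.88 for Rbbp4 OE against control (limma adjusted p = 0.00173). Rbbp7 was at 239 and 237 TPM in the controls, with 208 and 217 TPM under Rbbp4 OE and 725 and 748 TPM under Rbbp7 OE, where its log2 fold change was 1.63 (limma adjusted p = 2.27e-04). Both genes followed the labels. All 8 mESC markers (Pou5f1, Nanog, Sox2, Zfp42, Esrrb, Klf4, Tfcp2l1 and Dppa5a) stood at 76.8 TPM or more in every library, but 3 of them passed in Rbbp4 OE against control, where 11.4% of all genes did. Pou5f1 was higher by 0.25 on the log2 scale (limma adjusted p = 0.0334), and Nanog (-0.23, adjusted p = 0.0393) and Tfcp2l1 (-0.52, adjusted p = 0.0330) were lower. Summed over 5 genes each, fibroblast markers were at 4.57 to 5.84 TPM in control, 9.28 to 11.5 in Rbbp4 OE and 8.94 to 15.8 in Rbbp7 OE, with 2 of 5 above a mean of 1 TPM. In Rbbp4 OE that sum was mostly Thy1, at 8.87 and 10.8 TPM against 4.13 and 5.02 TPM in control (limma adjusted p = 0.0192), and the highest sum, in Rbbp7 OE replicate 1, included 6.39 TPM of Col3a1. The sums of primitive endoderm markers overlapped between all groups in the same order, at 0.84 to 1.34, 0.60 to 1.25 and 1.11 to 3.11 TPM, with 0 of 5 above a mean of 1 TPM. Trophoblast markers summed to 24.6 to 27.3, 35.3 to 35.5 and 29.8 to 30.5 TPM, with 1 of 5 above it (Tfap2c, which mESCs also express), and neural markers summed to 103 to 105, 120 to 121 and 94.7 to 96.1 TPM, with 2 of 5 above it. The part of these marker differences in the PRC2 results was not tested.

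Among the PRC2 genes, Eed was the most abundant, with a mean of 235 TPM over the 6 libraries, which placed it above 95.7% of the genes tested. Mtf2 (105 TPM), Ezh2 (97.7 TPM), Jarid2 (75.8 TPM) and Suz12 (72.8 TPM) followed, and the ranges of neighbours in this order overlapped. Aebp2 (39.1 TPM) lay apart below them, and Phf1 (9.60 TPM), Ezh1 (7.06 TPM) and Phf19 (0.672 TPM) came last, each apart from the next. These cells therefore held far more transcript of Ezh2 than of Ezh1, and of Mtf2 than of the other Polycomb-like genes. Replicates differed by a median of 0.132 in log2 over the 9 genes in control, 0.0891 in Rbbp4 OE and 0.0921 in Rbbp7 OE. The widest gaps were 0.387 for Jarid2 in control, 0.216 for Ezh2 in Rbbp4 OE and 0.567 for Phf19 in Rbbp7 OE.

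**Figure D1:**
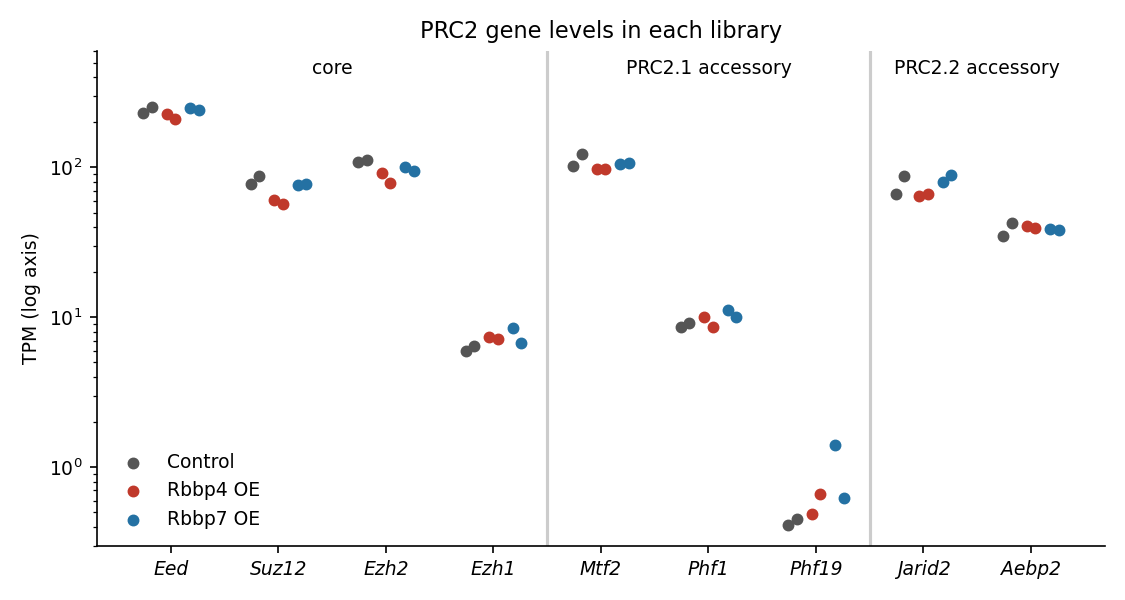
Expression of the 9 PRC2 genes in TPM, 1 point per library, in control, Rbbp4 OE and Rbbp7 OE. Eed sits highest at 210 to 253 TPM, and Phf19 lowest at 0.41 to 1.40 TPM.

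In Rbbp4 OE against control, Suz12 and Ezh2 passed as lower and no PRC2 gene passed as higher. These 2 of 9 genes (22.2%) passed an adjusted p of 0.05 in limma. Of all genes tested, 11.4% passed in either direction, 8.07% as lower and 3.29% as higher. That share depends on the genes compared. It was 15.9% in a fit on protein-coding genes. In a fit on genes with a mean of at least 5 TPM, which leaves out Phf19, it was 22.6%, near the share of the members. None of the 9 met the study's thresholds of an adjusted p under 0.01 and a fold over 2, which 0.516% of all genes met. The median log2 fold change was -0.15 over the 9 genes and -0.08 over all genes tested. With median-of-ratios scaling the median of all genes moved to 0.0059, the median of the 9 to -0.05, and the share of higher genes among those passing from 29.0% to 48.1%.

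Suz12 (ENSMUSG00000017548.15, chr11:79993106-80034123 of GRCm38, the build of all coordinates here, plus strand), the scaffold gene, changed most among the core genes. It was at 77.3 and 88.1 TPM in the controls, with 60.3 and 56.6 TPM under Rbbp4 OE and 76.9 and 77.9 TPM under Rbbp7 OE. Both Rbbp4 OE libraries lay below all others, and the Rbbp7 OE libraries overlapped the controls. Rbbp4 OE differed from control by a log2 fold change of -0.49 (SE 0.082, 95% confidence interval -0.69 to -0.29, limma adjusted p = 0.0211). The adjusted p stayed under 0.05 in 9 of 11 other settings but in only 1 of 6 fits that left out a library, that without control replicate 1, and ranged from 0.0110 to 0.162. The fold change stayed between -0.585 and -0.398 in the fits without a library, which hold fewer libraries for every gene and not for Suz12 alone. In bulk RNA, fewer cells expressing a gene and less RNA per cell cannot be told apart.

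Ezh2 (ENSMUSG00000029687.16, chr6:47530139-47595341, minus strand), the gene of the main methyltransferase, was at 108 and 112 TPM in the controls, with 91.4 and 78.5 TPM under Rbbp4 OE and 101 and 94.8 TPM under Rbbp7 OE. Every Rbbp4 OE library lay below every other library. Rbbp4 OE differed from control by -0.38 on the log2 scale (SE 0.087, 95% confidence interval -0.59 to -0.16, limma adjusted p = 0.0468). This call sat at the threshold: it held in 5 of 11 other settings and in 0 of 6 fits that left out a library, with adjusted p from 0.0269 to 0.192, while the fold change stayed negative in all of them.

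The other core genes did not pass. Eed (chr7:89954654-89980983, minus strand), whose protein reads the mark, was at 231 and 253 TPM in the controls, with 226 and 210 TPM under Rbbp4 OE and 248 and 240 TPM under Rbbp7 OE. Its Rbbp4 OE libraries were the lowest of the 6, and the log2 fold change against control was -0.15 (95% confidence interval -0.31 to 0.01, limma adjusted p = 0.199). Ezh1 (chr11:101191115-101226463, minus strand), the gene of the second methyltransferase, went the other way, at 5.98 and 6.47 TPM in the controls, with 7.40 and 7.21 TPM under Rbbp4 OE and 8.52 and 6.78 TPM under Rbbp7 OE. Both overexpressing groups lay above the controls without overlap, but the log2 fold changes of 0.20 and 0.25 missed the threshold (limma adjusted p = 0.403 and 0.470).

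**Figure D2:**
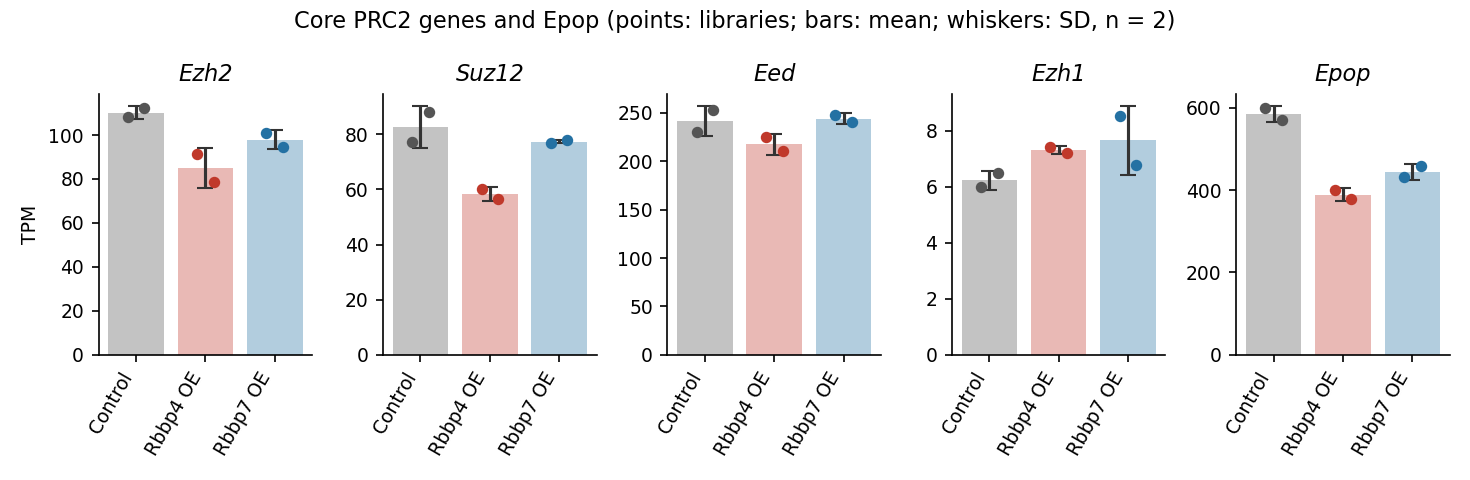
Expression in TPM of the core genes and of the PRC2 partner gene Epop in control, Rbbp4 OE and Rbbp7 OE, with a point per library, bars for the mean and whiskers for the SD (n = 2). Both Rbbp4 OE libraries sit below all others for Suz12 (56.6 and 60.3 TPM) and Ezh2 (78.5 and 91.4 TPM).

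None of the 5 accessory genes passed in Rbbp4 OE. Mtf2 (chr5:108065674-108109004, plus strand), the main Polycomb-like gene of mESCs, was at 102 and 122 TPM in the controls, with 97.1 and 96.9 TPM under Rbbp4 OE and 105 and 107 TPM under Rbbp7 OE. Rbbp4 OE differed from control by -0.20 on the log2 scale (95% confidence interval -0.42 to 0.02, limma adjusted p = 0.197), and the value rested on which control was used, being -0.33 without control replicate 1 (limma adjusted p = 0.0337) and -0.08 without control replicate 2 (adjusted p = 0.391). Jarid2 (chr13:44729474-44921643, plus strand), whose protein helps to recruit PRC2.2 and stimulates the enzyme, was at 66.7 and 87.6 TPM in the controls, with 64.8 and 66.7 TPM under Rbbp4 OE and 80.0 and 89.2 TPM under Rbbp7 OE. Its controls lay far apart, and the fold change of -0.21 for Rbbp4 OE had an interval from -0.54 to 0.11 (limma adjusted p = 0.333). It was -0.41 without control replicate 1 and -0.02 without control replicate 2.

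Aebp2 (chr6:140622663-140678472, plus strand), the other PRC2.2 gene, was at 34.7 and 42.6 TPM in the controls, with 40.4 and 39.5 TPM under Rbbp4 OE and 38.7 and 38.5 TPM under Rbbp7 OE, and both overexpressing groups lay inside the range of the controls (log2 fold change 0.05 for Rbbp4 OE, limma adjusted p = 0.777). Phf1 (chr17:26933052-26937908, plus strand) was at 8.68 and 9.13 TPM in the controls, with 9.99 and 8.63 TPM under Rbbp4 OE and 11.2 and 10 TPM under Rbbp7 OE. Its Rbbp4 OE libraries spanned the controls (log2 fold change 0.06, limma adjusted p = 0.811), and 1370 bases of its exons overlap Cuta on the opposite strand, a gene at a mean of 106 TPM. No source used here gives the strand setting of the counting, so whether reads in this overlap were assigned to the right gene is unknown. Smaller overlaps of this kind affect Mtf2 (395 bases, with Tmed5), Eed (261 bases, with E230029C05Rik), Suz12 (178 bases) and Ezh2 (174 bases). Phf19 (chr2:34893757-34914026, minus strand) was at 0.41 and 0.45 TPM in the controls, with 0.49 and 0.66 TPM under Rbbp4 OE and 1.40 and 0.62 TPM under Rbbp7 OE. The log2 fold change for Rbbp4 OE was 0.14 (95% confidence interval -0.52 to 0.79, limma adjusted p = 0.777). Its highest value came from Rbbp7 OE replicate 1, the library that also had the highest summed fibroblast markers (15.8 TPM) and primitive endoderm markers (3.11 TPM), whose part in this value was not tested.

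Without regard to the test, 5 of the 9 genes (Suz12, Ezh2, Eed, Mtf2 and Jarid2, the last by 0.03 TPM) were lower in both Rbbp4 OE libraries than in both controls, where 37.1% of all genes were, and 2 (Ezh1 and Phf19) were higher in both, where 20.8% of all genes were. The 5 lower genes are also the 5 most abundant of the set.

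**Figure D3:**
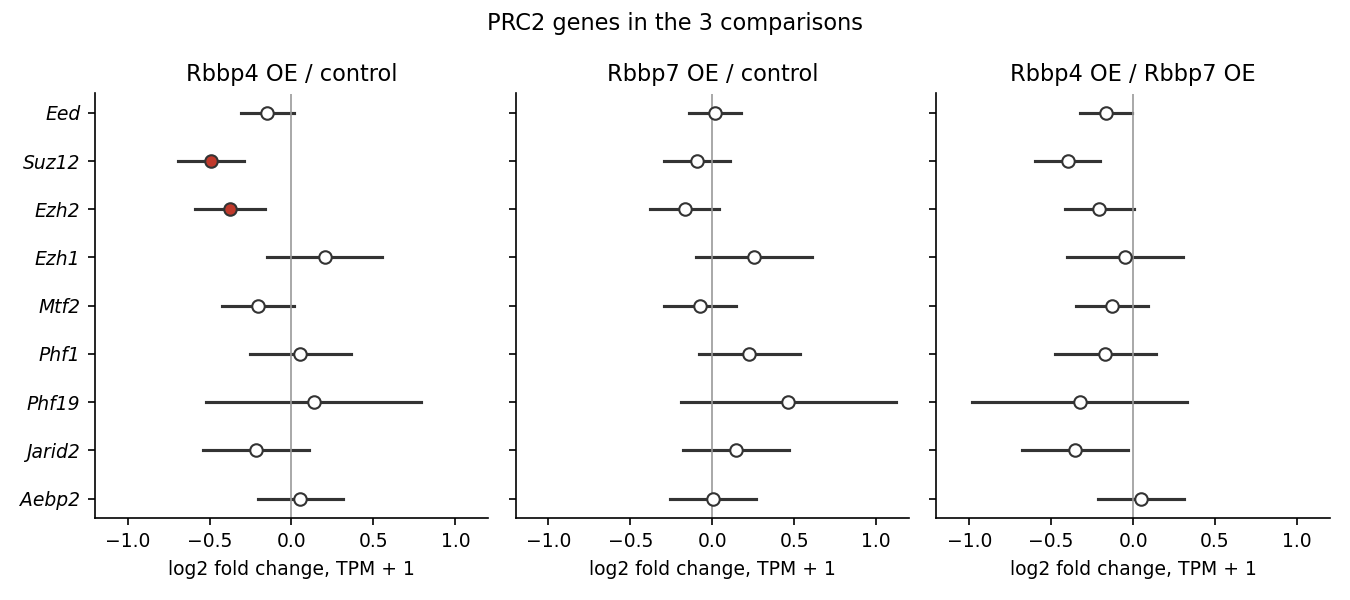
Log2 fold change of each PRC2 gene on the log2(TPM + 1) scale in the 3 comparisons, with 95% confidence intervals from limma. Filled points passed an adjusted p of 0.05, which were Suz12 (-0.49) and Ezh2 (-0.38) in Rbbp4 OE against control.

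In Rbbp7 OE against control, 0 of 9 PRC2 genes passed an adjusted p of 0.05 in limma, where 0.487% of all genes passed, 0 met the study's thresholds, which 0.0353% of all genes met, and 0 had an unadjusted p under 0.05, where 15.4% of all genes did. The median log2 fold change was 0.02 over the 9 genes and -0.0037 over all genes. The largest differences were those of Phf19 (0.46, 95% confidence interval -0.19 to 1.12), Ezh1 (0.25, -0.10 to 0.61), Phf1 (0.23, -0.08 to 0.53) and Ezh2 (-0.17, -0.38 to 0.04). That of Phf19 was 0.18 without Rbbp7 OE replicate 1 and 0.14 with a pseudocount of 5, and so no longer the largest. Phf19, Ezh1 and Phf1 were higher in both Rbbp7 OE libraries than in both controls, where 21.2% of all genes were, and Ezh2 was lower in both, where 23.4% were. Suz12 differed from control by -0.09 (95% confidence interval -0.29 to 0.11) and Eed by 0.02 (-0.14 to 0.18).

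The 2 comparisons above share their control libraries, and the overexpressing groups were also tested directly against each other. In Rbbp4 OE against Rbbp7 OE, 0 of 9 PRC2 genes passed an adjusted p of 0.05 in limma, where 0.304% of all genes passed, 0 met the study's thresholds, which 0.0494% of all genes met, and 3 (Suz12, Jarid2 and Eed) had an unadjusted p under 0.05, where 19% of all genes did. The fall of Suz12 and Ezh2 was thus not shown to be particular to Rbbp4 OE. Suz12 differed by -0.40 (95% confidence interval -0.60 to -0.20, limma adjusted p = 0.123), Jarid2 by -0.36 (-0.68 to -0.03, adjusted p = 0.231) and Eed by -0.16 (adjusted p = 0.253). Ezh2 differed by -0.21 (limma adjusted p = 0.275). Of the 9 genes, 8 had a negative fold change in Rbbp4 OE, as had 63.3% of all genes, and of the 8 Ezh1 turned positive with median-of-ratios or quantile scaling. The median was -0.17 over the 9 genes against -0.08 over all genes. In this comparison 6 genes (Suz12, Ezh2, Eed, Mtf2, Jarid2 and Phf1, the last by 0.01 TPM) were lower in both Rbbp4 OE libraries, where 38.6% of all genes were, and Aebp2 was higher in both, where 16.1% were.

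Ratios within a library do not depend on how libraries are scaled to each other, and they are given here as descriptions, since 2 libraries a group allow no permutation test to reach 0.05. Suz12 transcripts relative to Eed were at 0.335 and 0.349 in the controls, with 0.267 and 0.269 under Rbbp4 OE and 0.310 and 0.324 under Rbbp7 OE. The 3 groups did not overlap, with Rbbp4 OE lowest and Rbbp7 OE between. Ezh2 relative to Eed was at 0.469 and 0.445 in the controls, with 0.405 and 0.374 under Rbbp4 OE and 0.407 and 0.394 under Rbbp7 OE, so that both overexpressing groups lay below control and overlapped each other. The ratio of Suz12 to Ezh2 ranged from 0.715 to 0.784 in control, 0.660 to 0.721 in Rbbp4 OE and 0.761 to 0.822 in Rbbp7 OE, with overlap between control and each of the others.

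The share of Ezh1 in the summed Ezh1 and Ezh2 transcripts was 5.24% and 5.45% in the controls, with 7.49% and 8.41% under Rbbp4 OE and 7.78% and 6.68% under Rbbp7 OE. Ezh1 thus remained the minor methyltransferase transcript in every library, with a higher share in both overexpressing groups than in control. Summed transcripts of the PRC2.1 accessory genes relative to those of the PRC2.2 accessory genes stood at 1.10 and 1.01 in the controls, with 1.02 and 1.00 under Rbbp4 OE and 0.995 and 0.922 under Rbbp7 OE. The balance between the accessory sets overlapped between control and Rbbp4 OE and was lower in both Rbbp7 OE libraries than in any other. Mtf2 supplied 89.3% to 92.7% of the PRC2.1 accessory transcripts in every library.

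Rbbp4 and Rbbp7 transcripts together, relative to Suz12, stood at 4.98 and 4.36 in the controls, with 7.93 and 8.64 under Rbbp4 OE and 11.3 and 11.4 under Rbbp7 OE. The summed Rbbp4 and Rbbp7 transcripts thus exceeded those of Suz12 already in control. By the study's introduction both proteins also belong to other complexes, such as NuRD and NURF, so the ratio does not describe PRC2 alone. Its rise in the overexpressing groups includes the transcripts that were overexpressed by design. All 9 other subunits together summed to 635 and 722 TPM in the controls, with 597 and 565 TPM under Rbbp4 OE and 671 and 665 TPM under Rbbp7 OE, the lowest sums being those of Rbbp4 OE.

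**Figure D4:**
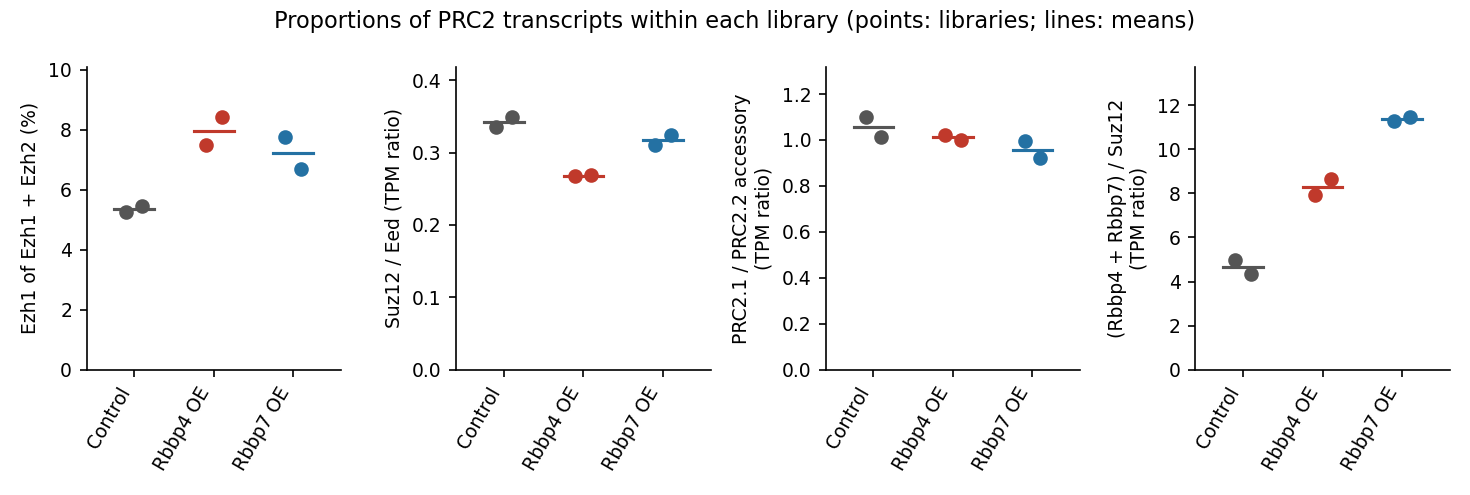
Ratios of PRC2 transcripts within each library, 1 point per library, in control, Rbbp4 OE and Rbbp7 OE, with every axis starting at 0. Suz12 over Eed is at 0.335 and 0.349 in control and at 0.267 and 0.269 in Rbbp4 OE.

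The promoters of the 2 genes that passed are shown because both fell in Rbbp4 OE and their motif content can be set beside that of the other members. The sequences are RefSeq's for GRCm38.p6, lie upstream of the start site and run 5′ to 3′ on the gene's strand. Capitals mark matches to CCAAT and to E2F-type letters (TTTCCCGC, TTTGGCGC, TTTCGCGC or TTTGCCGC), and all motifs were searched on both strands. For Suz12 the stretch is chr11:79992856-79993105, plus strand, and for Ezh2 it is chr6:47595059-47595183, minus strand, from 153 to 29 bases upstream, the longest run of its window outside annotated exons.
Suz12: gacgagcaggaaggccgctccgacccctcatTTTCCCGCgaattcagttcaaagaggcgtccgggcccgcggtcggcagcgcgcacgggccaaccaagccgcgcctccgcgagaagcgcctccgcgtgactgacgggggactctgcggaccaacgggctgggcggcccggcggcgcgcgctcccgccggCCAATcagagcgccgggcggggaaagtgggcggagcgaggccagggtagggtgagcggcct
Ezh2: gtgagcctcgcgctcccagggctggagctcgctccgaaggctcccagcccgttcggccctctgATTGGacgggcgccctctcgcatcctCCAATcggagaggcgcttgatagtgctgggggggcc
Suz12 held an E2F-type match that began 219 bases upstream of its start site, and 1 CCAAT match. Ezh2 held no E2F-type match in its window of 250 bases, and 3 CCAAT matches, 2 of them in the stretch shown. Of the 9 members, 2 (Suz12 and Phf19, the latter as the complement GCGGGAAA) held an E2F-type match, compared with 1.86% of 32851 promoter windows of the same length. CCAAT was in 3 of 9 (Ezh2, Suz12 and Jarid2) and in 33.8% of all windows, the GC box GGGCGG in 5 of 9 and in 32.7%, and TATAAA in 0 of 9 and in 12.4%. No E2F-type match overlapped another motif. CpG dinucleotides numbered from 1 (Aebp2) to 37 (Suz12) per window, with a median of 23 against 6 over all windows, and 8 of 9 members lay above that median. The 32851 windows came from all listed start sites, whether or not the gene was expressed. All 9 members were expressed enough to be tested, and no background of expressed genes was used. All 250 bases of the Eed window lay in annotated exons. The motifs are letter matches only.

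Genes around PRC2 were taken from lists made by function. Of 4 other PRC2 partners, 1 (25%) passed in Rbbp4 OE against control, as lower, where 11.4% of all genes passed in either direction. Epop (chr11:97627389-97629702, minus strand), whose protein binds PRC2.1 and elongin, was at 599 and 571 TPM in the controls, with 400 and 379 TPM under Rbbp4 OE and 431 and 458 TPM under Rbbp7 OE. All overexpressing libraries lay below both controls, and Rbbp4 OE lay below Rbbp7 OE. Its log2 fold change was -0.59 in Rbbp4 OE (SE 0.055, limma adjusted p = 0.00662) and -0.39 in Rbbp7 OE (limma adjusted p = 0.0580), and the difference between them was -0.19 (limma adjusted p = 0.168). In Rbbp4 OE the fall passed in 11 of 11 other settings and in 4 of 6 fits without a library, the exceptions being those without an Rbbp4 OE replicate (limma adjusted p = 0.0601 and 0.108). In Rbbp7 OE it passed in 4 of 11 and in 0 of 6.

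Of 5 genes of the enzymes that remove or compete with the PRC2 mark (demethylases and acetyltransferases of lysine 27), 0 passed in Rbbp4 OE. Of 12 genes of canonical PRC1, a complex that binds the mark, 1 (8.33%) passed, as higher. The share of all genes passing in either direction was 11.4%. Cbx8, a chromodomain subunit that reads the mark, was at 1.37 and 1.66 TPM in the controls, with 4.51 and 3.65 TPM under Rbbp4 OE and 2.39 and 3.17 TPM under Rbbp7 OE, without overlap between the groups. Rbbp4 OE exceeded control by 1.01 on the log2 scale (95% confidence interval 0.53 to 1.49, limma adjusted p = 0.0302), and it passed in 7 of the 10 other settings that included it and in 0 of 6 fits without a library. Canonical PRC1 genes had a median of -0.14, near that of the PRC2 members.

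Of 20 developmental genes known as PRC2 targets in mESCs, 6 were expressed enough to be tested. Of these, 1 (16.7%) passed in Rbbp4 OE against control, as lower, where 11.4% of all genes passed in either direction. By sign alone, 4 of the 6 were lower and 2 higher in Rbbp4 OE, where 59% of all genes were lower. In Rbbp7 OE against control, 4 were lower and 2 higher, where 50.7% of all genes were lower. Hoxa9, a homeobox gene of posterior patterning, was at 7.05 and 9.98 TPM in the controls, with 0.34 and 0.60 TPM under Rbbp4 OE, and under Rbbp7 OE it was at 2.85 TPM in replicate 1 and listed at 0 in replicate 2. Both overexpressing groups lay below control, by -2.68 on the log2 scale in Rbbp4 OE (95% confidence interval -4.14 to -1.22, limma adjusted p = 0.0427) and by -2.26 in Rbbp7 OE (limma adjusted p = 0.185). The Rbbp4 OE value passed in 6 of the 10 other settings that included it and in 2 of 6 fits without a library, those that left out an Rbbp7 OE replicate. In Rbbp7 OE against control, 0 genes of these 4 lists passed in limma, where 0.487% of all genes did. In Rbbp4 OE against Rbbp7 OE, 0 passed, where 0.304% of all genes did. An unadjusted p under 0.05 in limma was found in these comparisons for 9 and 4 of the 27 tested (33.3% and 14.8%), against 15.4% and 19% of all genes. In Rbbp4 OE against control it was found for 12 of the 27 (44.4%), against 29.6% of all genes.

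**Figure D5:**
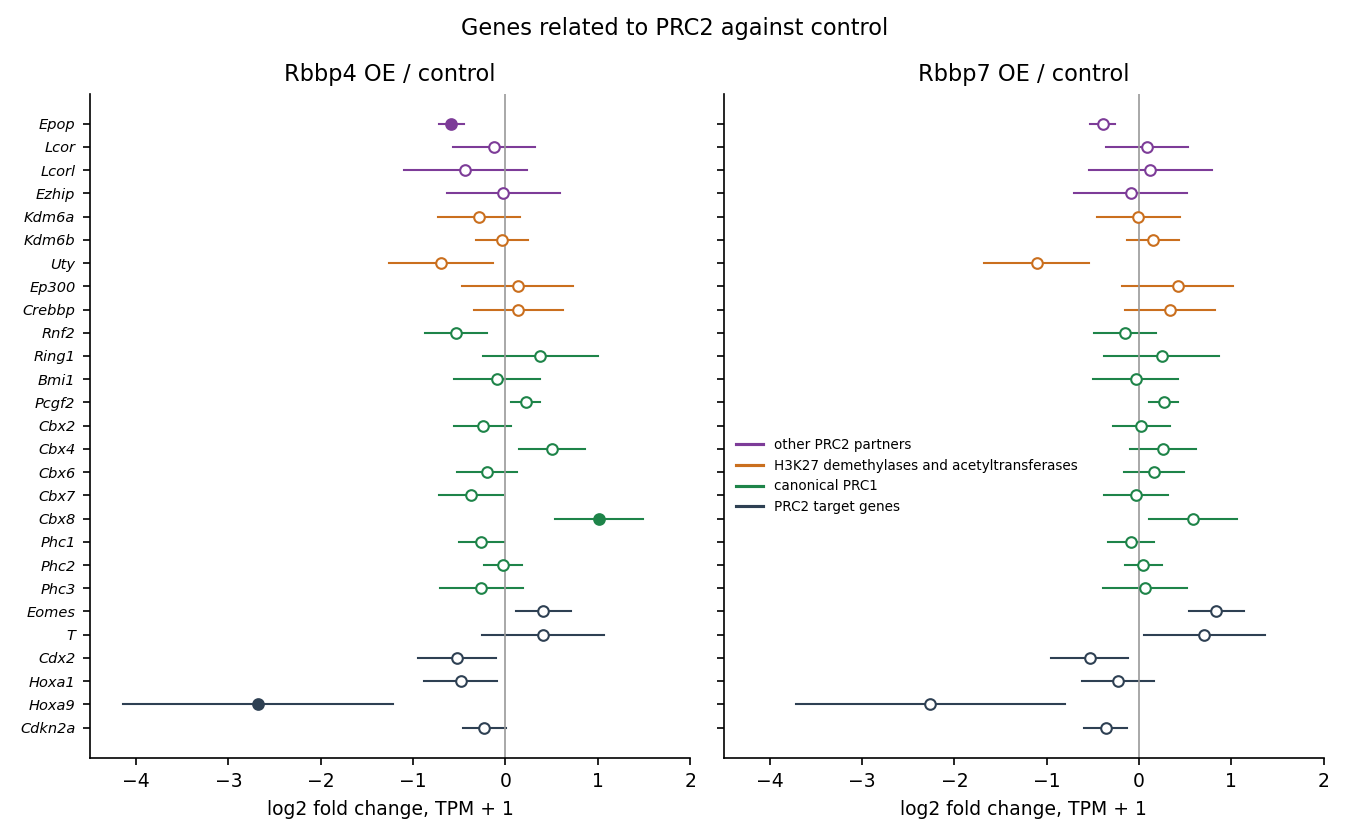
Log2 fold change on the log2(TPM + 1) scale of the genes around PRC2 in Rbbp4 OE (left) and Rbbp7 OE (right) against the same controls, with 95% confidence intervals from limma and 1 colour per list. Filled points passed an adjusted p of 0.05, which were Epop (-0.59), Cbx8 (1.01) and Hoxa9 (-2.68) in Rbbp4 OE.

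Of the 9 members, Suz12 had the widest spread of its 3 group means on the log2 scale. Over the 6 libraries, the genes whose log2 levels were most like those of Suz12 among 11160 compared were Usp38 (Pearson r = 0.998), Igsf3 (0.997), Bzw1 (0.996), Fpgs (0.996) and Kpna1 (0.996). Usp38, for example, was at 10.4 and 12.1 TPM in the controls, with 7.83 and 7.11 TPM under Rbbp4 OE and 10.1 and 10.6 TPM under Rbbp7 OE, again lowest in the Rbbp4 OE libraries. These values were selected as the highest of many over 6 points that share group and library, and are given as a description.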

How the data were processed

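Poly(A) RNA-seq was analysed in 6 libraries of 46C mESCs, in 3 groups of 2 set from the labels. Reads were trimmed (Trim_galore), aligned to mm10 (STAR) and quantified (RSEM) by the authors, who deposited TPM values for 55401 genes per library. TPM keeps no sequencing depth, so depth is unknown and no counting interval is given. Between 19011 and 19691 genes were above 0 TPM in each library.

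Genes with a mean of at least 0.5 TPM (14156) were tested with limma-trend (limma 3.58.1, R 4.3.3) on log2(TPM + 1), a scale that understates the change of low genes. All 3 groups entered 1 fit with no covariate (3 residual and 3.103 prior degrees of freedom), with Benjamini-Hochberg adjustment over all genes. The study used a count model, which TPM does not allow. Passing meant an adjusted p under 0.05 whatever the fold.

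Named were all 9 members, Rbbp4, Rbbp7, genes of 4 related lists that passed in any comparison, and the 5 genes most like the member with the widest spread. Members and lists were chosen with earlier results of these data known. GENCODE M21 on GRCm38 supplied names and coordinates (260 genes unmatched), and near-identical transcripts were searched with blastn 2.17.0 (at least 200 bases at 95% identity). No columns were left unmapped. Other settings tried were pseudocounts of 0.1 and 5, no filter and a mean of at least 5 TPM, median-of-ratios and quantile scaling, 2-group fits, a replicate block, protein-coding genes, a robust trend, a GC and length correction, and leaving out each library.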

Additional observations from a re-analysis of the deposited data

Results flagged for a closer look

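The log2 fold changes of 2 genes differed between the overexpressing groups in the direct test. That of Rbbp4 was higher in Rbbp4 OE than in Rbbp7 OE by 0.912 (limma adjusted p = 0.00192), and that of Rbbp7 differed by -1.79 (limma adjusted p = 8.31e-05). These are the overexpressed genes themselves. None of the 9 PRC2 genes passed an adjusted p of 0.05 in this test.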

How the results depend on the processing

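The number of PRC2 genes that passed in Rbbp4 OE against control was 2 and became 0 with no filter and with 2-group fits, and 1 with median-of-ratios scaling, quantile scaling, the GC and length correction and the replicate block, and it ranged from 0 to 2 when a library was left out. Replicate numbers did not pair the libraries (correlations of deviations from -0.0308 to 0.0336). The block left Suz12 as the gene passing and moved the calls over all genes from 1609 to 900. It is among the other settings counted above for single genes. Calls over all genes in Rbbp4 OE against control rose from 11.4% to 22.6% with a mean of at least 5 TPM and to 15.9% with protein-coding genes. They fell to 2.87% with no filter and to 1.12% with 2-group fits. They were fewer in every fit without a library too. The median over the 9 genes in this comparison, -0.148, was -0.0468 with median-of-ratios scaling and -0.0889 with the GC and length correction. It was -0.214 to -0.0212 without a library. In Rbbp4 OE against Rbbp7 OE the median, -0.171, was -0.0826 with median-of-ratios scaling and -0.248 to -0.114 without a library, and in Rbbp7 OE against control, 0.0167, it was -0.0511 to 0.150 without a library. Other counts of PRC2 genes passing stayed at 0 in every setting run. Among single genes, signs turned for Ezh1 in Rbbp4 OE against Rbbp7 OE (0.0342 with median-of-ratios, 0.0551 with quantile scaling), Hoxa9 in the same comparison (0.0311 at a pseudocount of 0.1), Phf1 in Rbbp4 OE (-0.0990 with the GC and length correction) and Rbbp4 in Rbbp7 OE (0.00405 with quantile scaling, 0.0105 with the GC and length correction). Leaving out a library also turned the sign for Aebp2 in Rbbp4 OE (-0.0908 to 0.200) and Rbbp7 OE (-0.141 to 0.150), Eed (-0.0491 to 0.0825), Jarid2 (-0.0511 to 0.336), Mtf2 (-0.202 to 0.0553) and Suz12 (-0.185 to 0.00154) in Rbbp7 OE, Phf1 in Rbbp4 OE (-0.0402 to 0.150), and Ezh1 (-0.197 to 0.0941) and Hoxa9 (-1.39 to 0.55) in Rbbp4 OE against Rbbp7 OE. The causes were not tested. Depth is unknown, so how far it limits Phf19, Hoxa9 and Cbx8, the lowest of these genes, cannot be stated.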
